A study of Mus musculus with 9 samples.

Results

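Secreted frizzled-related proteins are represented here by 5 mouse genes, Sfrp1, Sfrp2, Sfrp4, Sfrp5 and Frzb, which is also called Sfrp3. They were taken from the platform annotation: 11 of the 45101 probe sets on the array name exactly 1 of these genes, and each gene is represented by its probe set of highest mean signal, as was done for all 18194 genes. The family was selected on the differences of Sfrp2 between the groups of these data, so those are described and carry no p-value. RNA came from tibial shafts of wild-type CD-1 mice aged 16 to 18 weeks, with 3 arrays in each of 3 groups. Virgin mice had not been bred and were matched for age. Lactation mice were killed on day 12 of lactation with litters of 8 to 13 pups. Post-lactation mice had the same litters removed on day 12 of lactation and were killed 7 days later. The purpose given for the series was to find genes involved in perilacunar remodelling, the removal and replacement of mineralised matrix by osteocytes around their own lacunae.

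The shafts had been cleared of periosteum and marrow and stripped of surface cells by repeated enzyme digestion, so the RNA is enriched for osteocytes and is not pure. Groups follow the array titles. For post-lactation arrays the labels' source entry says virgin, against the title, and a sentence of the extraction text mentions femurs. No label says whether each array is a separate mouse, so every p-value below measures the spread between these samples only.

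Secreted frizzled-related proteins carry a cysteine-rich domain like that of the Frizzled receptors, and they bind Wnt proteins outside the cell. They are best known as Wnt antagonists, although some of them can also aid Wnt signalling in other settings. Wnt signalling through Frizzled and the co-receptors Lrp5 and Lrp6 promotes bone formation, and osteocytes make other secreted inhibitors of it, Sost and Dkk1. In mice Sfrp2 has also been reported to enhance the procollagen C-proteinase Bmp1, which trims fibrillar collagen before it assembles.

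The arrays fell into 3 sets, inferred from values that are exactly equal between arrays in over 1% of probe sets. The labels do not name these sets, and each holds 1 array of every group. Set 1 is the least certain, with 2.50% to 2.72% of values equal against 36.1% to 44.1% in sets 2 and 3. Set 1 is virgin 1, lactation 3 and post-lactation 1. Set 2 is virgin 2, lactation 2 and post-lactation 3. Set 3 is virgin 3, lactation 1 and post-lactation 2. Median signals differed between sets, from 4.32 to 4.34 on the log2 scale in set 1, from 4.80 to 4.82 in set 2 and at 4.57 in set 3, so differences are also given within sets. Signals below 4.87, the 40th percentile of gene means, are called dim, and a fold against a dim group is given as at least its value against that level. Of 8 osteocyte markers, 7 had means above this level, among them Sost, and Fgf23 was dim at 3.00. Virgin 1 stood apart, with a Sost signal of 8.14 against 13.39 in virgin 2 and 13.55 in virgin 3. The 6 neutrophil markers averaged between 8.09 and 9.13 log2 units above the array median on all 9 arrays, so transcripts typical of marrow cells were measured in every sample.

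The upstream sequences of the members are shown because the genes were compared as a family. A relation of these sequences to the signals was not tested. RefSeq's table for build GRCm38.p6 holds 3 of the 5. Each line below gives the 250 bases before the transcript start used there, 5′ to 3′ on the gene's strand, and for Sfrp2 this window lies inside the span annotated for the gene. Capitals mark a match to a searched motif.
Sfrp2 (chr3:83766071-83766320, plus strand): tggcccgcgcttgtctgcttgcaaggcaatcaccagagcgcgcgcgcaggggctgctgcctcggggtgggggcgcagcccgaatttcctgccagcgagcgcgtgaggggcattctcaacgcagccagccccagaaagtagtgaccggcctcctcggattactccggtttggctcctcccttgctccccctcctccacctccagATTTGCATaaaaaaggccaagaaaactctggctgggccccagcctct
Sfrp5 (chr19:42202253-42202502, minus strand): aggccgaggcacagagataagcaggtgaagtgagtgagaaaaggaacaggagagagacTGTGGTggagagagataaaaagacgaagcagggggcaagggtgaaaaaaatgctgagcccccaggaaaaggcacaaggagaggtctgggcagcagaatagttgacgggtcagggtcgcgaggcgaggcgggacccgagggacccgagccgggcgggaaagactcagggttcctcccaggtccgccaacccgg
Frzb (chr2:80447397-80447646, minus strand): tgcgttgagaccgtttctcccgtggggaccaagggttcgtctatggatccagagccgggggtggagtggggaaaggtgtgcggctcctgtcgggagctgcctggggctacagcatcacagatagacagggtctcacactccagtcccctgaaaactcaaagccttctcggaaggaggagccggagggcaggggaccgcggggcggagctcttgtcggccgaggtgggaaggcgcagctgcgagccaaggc
The searched motifs were the octamer ATTTGCAT, the TATA motif TATAAA, the RUNX core TGTGGT and the TCF/LEF core CTTTG followed by AA, AT, TA or TT. Both strands were searched, and the motifs were chosen after the sequences had been seen. Sfrp2 holds the octamer 47 to 40 bases before its start, as do 1.6% of 32851 promoters of this length. Sfrp5 holds a RUNX core 192 to 187 bases before its start, as do 14% of promoters. None of the motifs was found in the Frzb window. TATAAA occurs in 12.4% and a TCF/LEF core in 14.8% of all promoters, and in none of these 3 windows. The GC content was 63.6% for Sfrp2, 59.6% for Sfrp5 and 64.4% for Frzb, against a median of 52.4% over all promoters.

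Sfrp2, the member for which the family was picked, was lowest in lactation and highest after weaning. Its only probe set, 1448201_at, stands for a gene at chr3:83765750-83774314 of build GRCm38.p6. Its signal on the log2 scale was 5.14, 4.75 and 5.34 on virgin arrays 1 to 3. On lactation arrays 1 to 3 it was 4.37, 4.23 and 4.03, all dim. On post-lactation arrays 1 to 3 it was 6.67, 6.20 and 6.27. The 3 groups did not overlap: every lactation array lay below every virgin array, and every virgin array below every post-lactation array. The group means were 5.08 ± 0.30 in virgin, 4.21 ± 0.17 in lactation and 6.38 ± 0.25 in post-lactation (SD, n = 3 each). By its rank within each array, which does not depend on how a set was scaled, Sfrp2 exceeded 48.6% to 61.5% of probe sets in virgin, 39.98% to 47.3% in lactation and 70.2% to 78.5% in post-lactation.

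**Figure D1:**
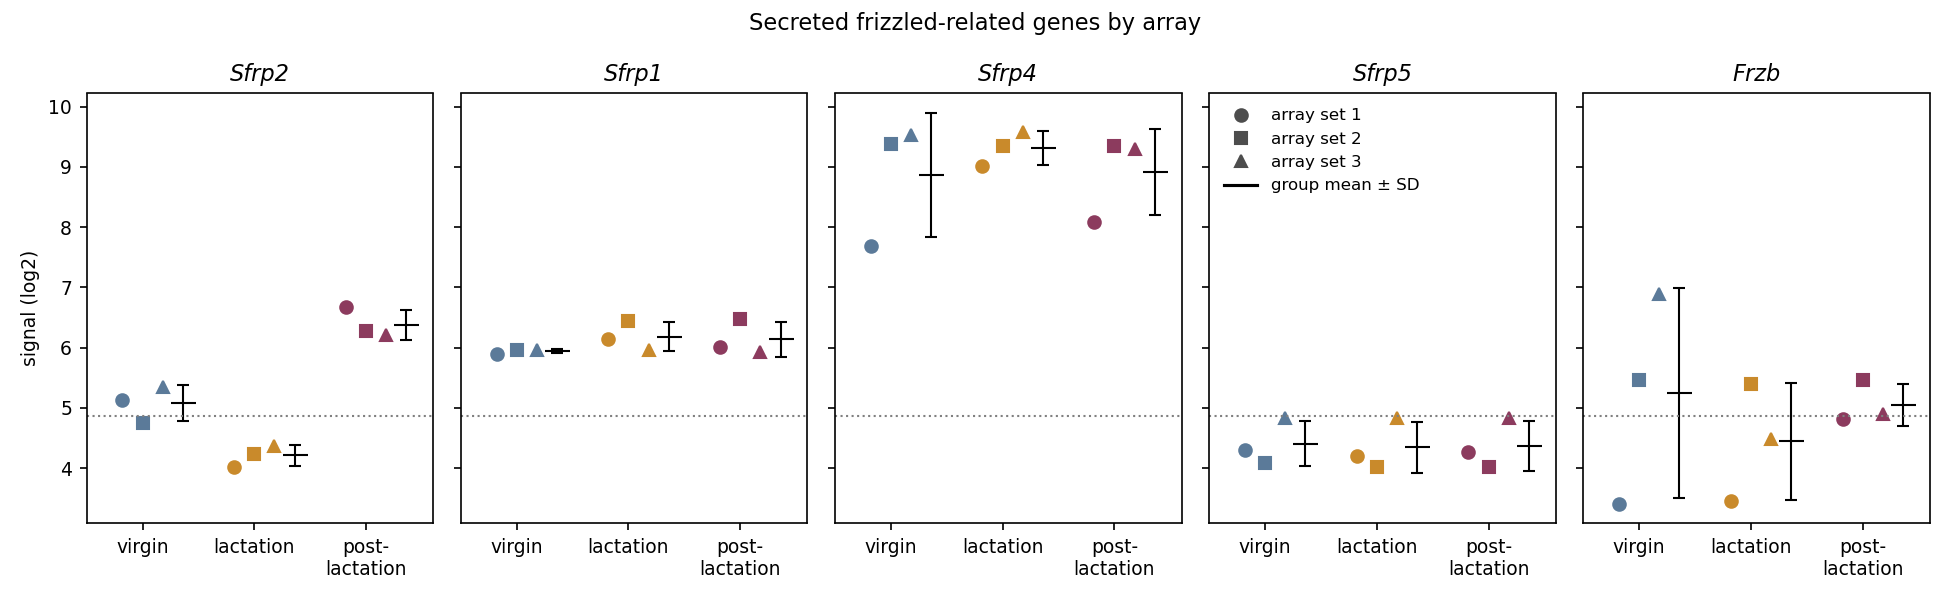
Signal of the 5 secreted frizzled-related genes on each of the 9 arrays, on the log2 scale, with virgin, lactation and post-lactation from left to right in each panel. Marker shapes give the array set, the black bar is the group mean ± SD (n = 3) and the dotted line is the dim level of 4.87. The groups are apart from each other for Sfrp2, with virgin arrays at 4.75 to 5.34, lactation arrays at 4.03 to 4.37 and post-lactation arrays at 6.20 to 6.67, and overlap or tie for the other 4 genes.

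Post-lactation exceeded lactation by 2.17 log2 units (SE 0.23), which is at least 2.85-fold once the dim lactation group is raised to the dim level. The difference was 2.64 in set 1, 2.03 in set 2 and 1.83 in set 3. Since the groups do not overlap, its sign is the same in each set by construction. Ordered from highest to lowest among 18194 genes, this difference ranked 3, a rank that the choice of the gene fixes in part. Post-lactation exceeded virgin by 1.30 (SE 0.23), or 2.47-fold, with 1.53, 1.52 and 0.86 within sets 1 to 3. Lactation lay below virgin by a log2 difference of -0.87 (SE 0.23), with -1.11, -0.52 and -0.97 within sets 1 to 3. Since all lactation arrays were dim, this is at least 1.16-fold lower in lactation. Virgin 2, at 4.75, was dim as well, so the difference within set 2 lies between dim values. Leaving out each array in turn gave 2.03 to 2.26, 1.14 to 1.44 and -1.03 to -0.73 for the 3 differences in the order given here. In bulk RNA, fewer cells that express a gene and less of its RNA per cell cannot be told apart.

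As background for these values, limma, a linear model that shares the spread over genes, called 129 of 18194 genes between post-lactation and lactation (0.709%) at a Benjamini-Hochberg adjusted p below 0.05. Of these 3 were higher in post-lactation. It called 0 between lactation and virgin (0%), where 328 had an unadjusted p under 0.05, and 32 between post-lactation and virgin (0.176%). Without the arrays of set 1 it called 0 in each of the 3 comparisons. Arrays of post-lactation and lactation did not overlap in 7.63% of genes, those of post-lactation and virgin in 2.67% and those of lactation and virgin in 2.75%. The order lactation below virgin below post-lactation, with no overlap between any groups, occurred in 11 of 18194 genes (0.0605%), Sfrp2 among them. With 3 arrays a group, some genes take such an order by chance alone. The reverse order occurred in 87 genes (0.478%).

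The genes most like Sfrp2 were sought by the Pearson correlation of the signal over the 9 arrays after subtraction of each set's mean, among 10916 genes above the dim level on average. The 9 points share 3 sets and 3 groups, so the coefficients describe the match and were not tested. The highest were Tmem243 at 0.996, Lrmp at 0.984, and Gas7 and Arhgap4 at 0.981. Pde2a, a cyclic nucleotide phosphodiesterase, Fam168b and Arhgap17 followed at 0.979, then Cyb561a3 at 0.977, Mpp6 at 0.970 and the coagulation factor gene F5 at 0.969. Without subtraction of the set mean these genes matched less closely, from 0.61 for F5 and Arhgap4 to 0.97 for Fam168b. Their differences between post-lactation and lactation were smaller than that of Sfrp2, with 1.04 for Lrmp, 0.80 for Tmem243 and 0.31 for Fam168b. Among the 62 genes of the Wnt pathway lists above the dim level on average, Nkd2 came closest at 0.929, then Lgr5 at 0.837 and Ctnnbip1 at 0.834.

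**Figure D2:**
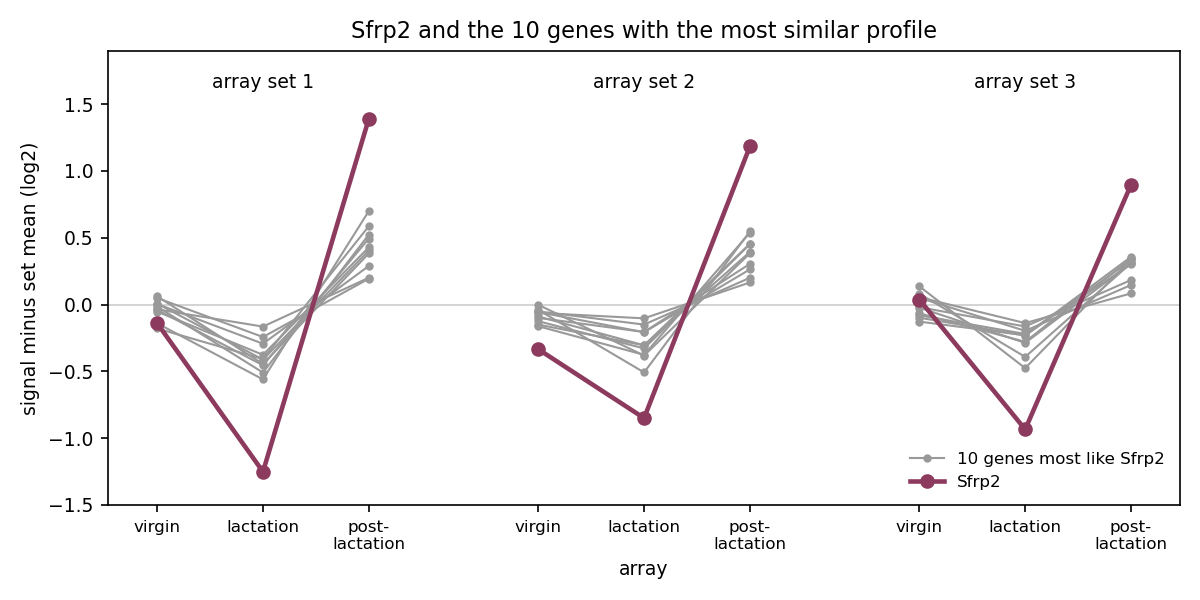
Signal of Sfrp2 (thick line) and of the 10 genes with the most similar profile (thin lines), minus the mean of the array set, on the log2 scale, for the 9 arrays ordered by set and then by group. The line of Sfrp2 is lowest in lactation and highest in post-lactation, the pattern for which it was chosen, and the thin lines, chosen for likeness to it, have smaller differences, between 0.31 for Fam168b and 1.04 for Lrmp between post-lactation and lactation.

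Markers of other cell types also moved between the groups, and their part in the Sfrp2 values was not tested. Each list is given as the mean of its genes above the array median, in log2 units. The 5 B lymphocyte markers ranged from 1.05 to 2.49 in virgin, 1.79 to 2.48 in lactation and 2.69 to 3.47 in post-lactation, and all 5 had their higher mean in post-lactation against lactation. The 5 erythroid markers ran the other way after weaning, with 3.91 to 4.91 in virgin, 5.42 to 5.74 in lactation and 0.48 to 1.73 in post-lactation. The 8 osteoclast markers were at 2.75 to 2.84 in virgin, 3.80 to 4.36 in lactation and 2.69 to 3.42 in post-lactation. The 6 marrow stroma markers were at 4.50 to 4.60 in virgin, 4.35 to 4.66 in lactation and 4.49 to 5.23 in post-lactation, and the highest value belonged to post-lactation 1. The 4 adipocyte markers found were likewise highest there, at 3.59, against 2.44 and 2.59 on the other post-lactation arrays. The 10 periosteum and tendon markers, cells in which Sfrp2 can be abundant, were at 0.82 to 1.76 in virgin, 1.20 to 1.33 in lactation and 1.07 to 1.34 in post-lactation, with Scx, Mkx, Dpt and Clec3b dim. The 5 smooth muscle and pericyte markers were at 1.36 to 2.72 in virgin, 2.09 to 3.17 in lactation and 2.54 to 3.23 in post-lactation.

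None of the other 4 members passed the test in any comparison. The adjusted p of limma was 1 for each of them in all 3 comparisons, none had an unadjusted p under 0.05, and the lowest adjusted p with a block for the array set was 0.546. Over all genes, limma called 0% between lactation and virgin, 0.709% between post-lactation and lactation and 0.176% between post-lactation and virgin, and with the set block 0.022%, 3.53% and 0.451%. At such shares, 0 calls among 4 genes does not set them apart from other genes.

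Sfrp1, which forms a subgroup of the family with Sfrp2 and Sfrp5, limits bone mass in mice, where its deletion raises trabecular bone. It lies at chr8:23411383-23449632. Its brightest probe set, 1438620_x_at, gave 5.90, 5.97 and 5.97 on virgin arrays 1 to 3, 5.97, 6.44 and 6.14 on lactation arrays 1 to 3, and 6.02, 5.92 and 6.47 on post-lactation arrays 1 to 3. The virgin arrays were close together and at the lower end of both other groups, with which they overlap or tie. Lactation minus virgin was 0.24 (SE 0.22), post-lactation minus lactation -0.04 (SE 0.22) and post-lactation minus virgin 0.19 (SE 0.22). The suffix of this probe set marks probes that can also match other transcripts.

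The second probe set of Sfrp1, 1448395_at, had almost the same mean, and there the virgin arrays lay below all others. It gave 5.70, 5.65 and 5.66 on virgin arrays, 6.26, 5.80 and 6.32 on lactation arrays, and 6.74, 5.90 and 6.02 on post-lactation arrays. Lactation exceeded virgin by 0.46 (SE 0.26) and post-lactation exceeded virgin by 0.55 (SE 0.26), and limma's adjusted p over all probe sets was 1 for both, where 0% of 34958 probe sets were called against virgin in lactation and 0.0658% in post-lactation. Within sets the differences to virgin were 0.62, 0.15 and 0.60 for lactation and 1.04, 0.36 and 0.24 for post-lactation, all positive. The other probe sets above the dim level disagreed on the sign: 1428136_at gave 0.29 for lactation and 0.37 for post-lactation against virgin, and 1416594_at gave -0.10 and -0.11, with exactly equal values in sets 2 and 3. The last, 1460187_at, was dim on all arrays.

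**Figure D3:**
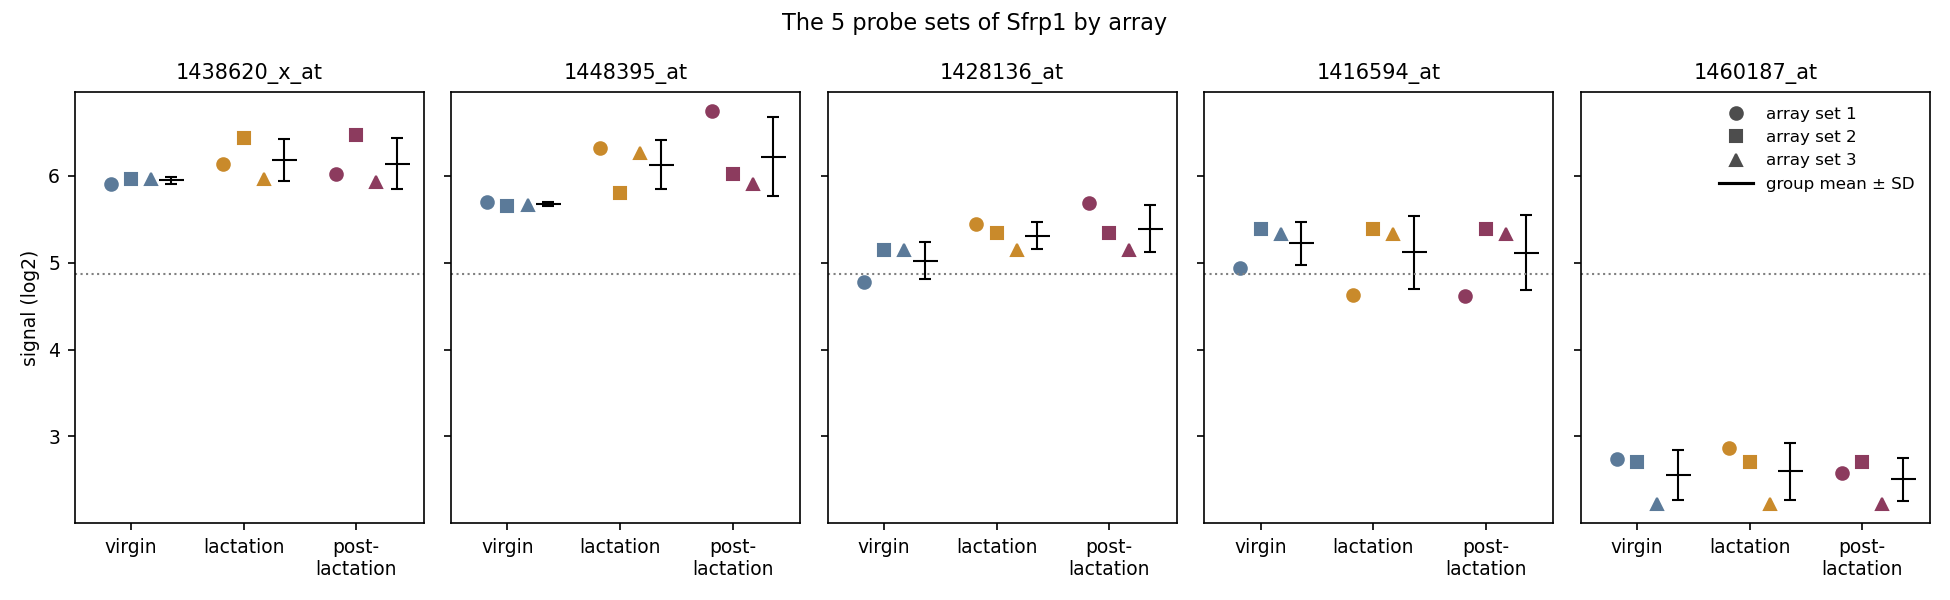
Signal of each of the 5 probe sets of Sfrp1 on the 9 arrays, on the log2 scale, with virgin, lactation and post-lactation from left to right; marker shapes give the array set, bars the group mean ± SD (n = 3) and the dotted line the dim level of 4.87. In 1448395_at the virgin arrays, at 5.65 to 5.70, lie below all others; in the other probe sets the groups overlap or tie.

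Sfrp4, a member that shapes the cortical shell in mice and whose loss thins human cortical bone, was well above the dim level on all arrays. Its single probe set, 1451031_at (gene at chr13:19623175-19632825), gave 7.69, 9.38 and 9.54 on virgin arrays 1 to 3, 9.57, 9.35 and 9.02 on lactation arrays 1 to 3, and 8.09, 9.29 and 9.35 on post-lactation arrays 1 to 3. The groups overlapped, and the low values in virgin and post-lactation were both arrays of set 1. Lactation minus virgin was 0.45 (SE 0.48), with 1.33, -0.03 and 0.03 within sets 1 to 3, and -0.14 without virgin 1. Post-lactation minus lactation was -0.40 (SE 0.48), with -0.93, 0.00 and -0.28 within sets. Post-lactation minus virgin was 0.04 (SE 0.48), and -0.55 without virgin 1. The osteocyte markers moved with these values: their mean above the array median was 3.48 in virgin 1 against 5.36 and 5.70 in virgin 2 and 3, and 4.74 in post-lactation 1 against 5.46 and 5.23 in post-lactation 2 and 3. Whether the share of osteocyte RNA set the Sfrp4 values was not tested.

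Frzb, known for restraining Wnt signalling in joint cartilage, varied more between arrays of a group than between groups. Its probe set 1416658_at (gene at chr2:80411970-80447396) gave 3.41, 5.46 and 6.88 on virgin arrays 1 to 3, 4.49, 5.40 and 3.45 on lactation arrays 1 to 3, and 4.82, 4.89 and 5.46 on post-lactation arrays 1 to 3. The virgin arrays span the values of both other groups. Lactation minus virgin was -0.81 (SE 0.72), and 0.011 without virgin 3. Post-lactation minus lactation was 0.61 (SE 0.72), and post-lactation minus virgin was -0.19 (SE 0.72), or 0.62 without virgin 3. Within sets, lactation minus virgin was 0.04, -0.06 and -2.40, and post-lactation minus virgin was 1.41, 0.00 and -1.99, so the sign depended on the set. Its second probe set, 1448424_at, was dim on average, at 3.20. Of the 8 chondrocyte markers 6 were dim on average, and the list was at -0.29 to 0.20 in virgin, -0.33 to 0.11 in lactation and -0.25 to 0.36 in post-lactation. Among them Acan, the cartilage proteoglycan, was dim on average, at 4.69. Its highest signal was in virgin 3, at 6.46, the array with the highest Frzb. The chondrocyte list as a whole did not peak there, with 0.16 in virgin 3 against 0.20 in virgin 2 and 0.36 in post-lactation 3. The periosteum and tendon list was highest in virgin 3, at 1.76. The part of chondrocytes or of periosteum and tendon cells in the Frzb values was not tested.

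Sfrp5, a member best known from adipose tissue, was dim. Its probe set 1423023_at (gene at chr19:42197971-42202252) gave 4.31, 4.09 and 4.83 on virgin arrays, 4.83, 4.01 and 4.20 on lactation arrays, and 4.27, 4.83 and 4.01 on post-lactation arrays. The value was exactly the same in all 3 arrays of set 3, so the spread within each group follows the set and not the group. The 3 differences between groups lay between -0.06 and 0.02 (SE 0.30), and no fold is given because all group means were below the dim level, also for its second probe set, 1436075_at.

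**Figure D4:**
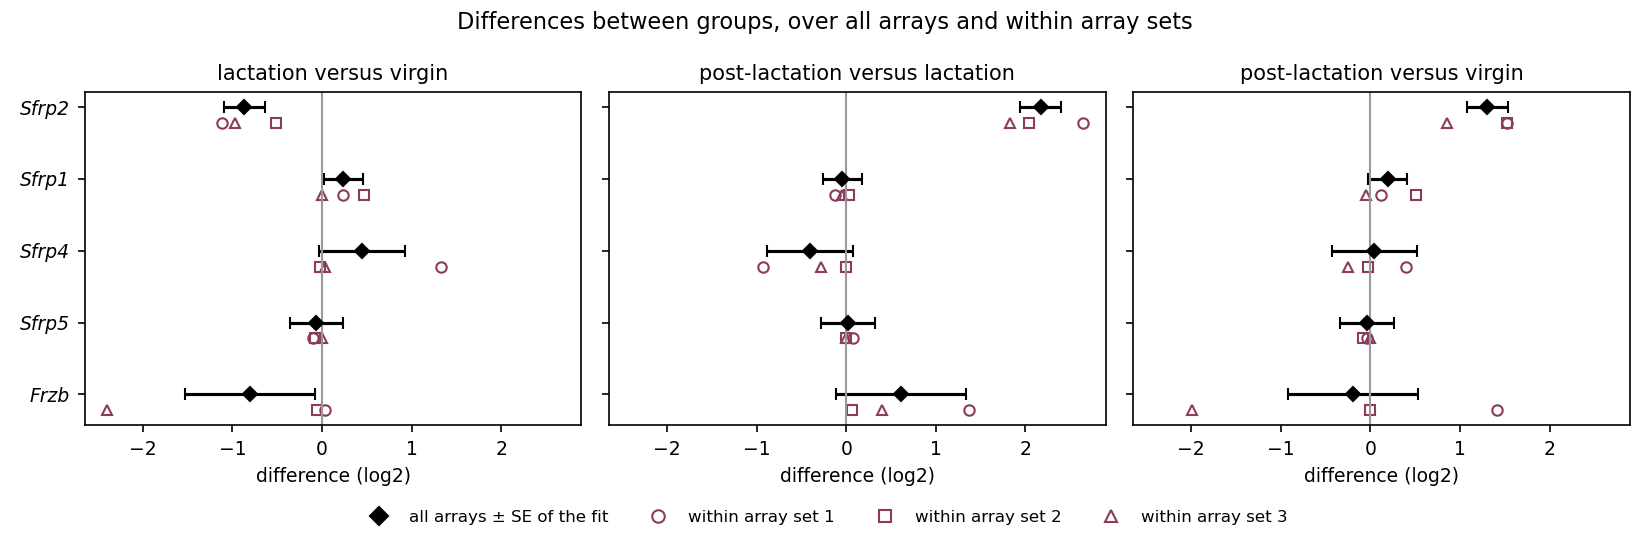
Differences between groups for the 5 genes on the log2 scale, with lactation versus virgin, post-lactation versus lactation and post-lactation versus virgin in the 3 panels. Black diamonds are the fit over all 9 arrays ± SE and open symbols the differences within each array set. In lactation versus virgin the values within sets reach from -2.40 to 0.04 for Frzb and from -0.03 to 1.33 for Sfrp4; Sfrp2 was chosen for its differences.

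Each of the other members had nearest genes of its own. By the same measure Sfrp1 was closest to Ulk3 at 0.991, Eva1a at 0.990 and Zmiz2 at 0.980, and Sfrp4 to Nbas at 0.996, Kmt2b at 0.992 and BC034090 at 0.988. Sfrp5 was closest to Pwwp2b at 0.992, Hcrt at 0.966 and Prdm2 at 0.963, and Frzb to Casd1 at 0.986, Rnps1 at 0.973 and Rapgef2 at 0.971. None of these genes was among the 10 closest to Sfrp2. On signals from which the set mean was not subtracted, the matches were weaker. With Sfrp5, Pwwp2b then gave -0.22, Hcrt -0.76 and Prdm2 -0.03, and Kmt2b gave -0.19 with Sfrp4. The rest gave from 0.39 for Casd1 with Frzb to 0.90 for Zmiz2 with Sfrp1. Sfrp5 was dim and tied in set 3, so its coefficients rest on small differences within sets 1 and 2. Nearest genes of the other members were tied as well. Ulk3 and Zmiz2 were equal on all arrays of set 3, and Nbas, Kmt2b, BC034090 and Rnps1 on all arrays of set 2. Their coefficients therefore rest mainly on the remaining sets.

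Without a block for the array set, no other measured gene of the Wnt pathway lists passed the test in any comparison. Nkd1 and Notum passed it with the block, in post-lactation versus lactation, as given below. Of 97 genes limma without the block called 0 each time, against 0%, 0.709% and 0.176% of all genes in lactation versus virgin, post-lactation versus lactation and post-lactation versus virgin. An unadjusted p under 0.05 was reached by 2, 6 and 2 of them (2.06%, 6.19% and 2.06%), near the shares of all genes, where 328, 921 and 381 reached it (1.8%, 5.06% and 2.09%). The median difference of the 97 genes was 0.05, 0.03 and 0.05, against 0.01, 0.00 and 0.00 over all genes. The higher mean lay in the first-named group for 62, 61 and 57 of the 97, in the same order of comparisons. Over all 18194 genes this held for 9491, 9123 and 9197. Of the 97 genes 34 were dim in all groups.

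The share of all genes whose arrays did not overlap, 2.75%, 7.63% and 2.67% in the 3 comparisons, is the background for every separation named here. Of 19 Wnt ligands 12 were dim in every group, and their median difference was 0.02, 0.03 and 0.03 in the same order of comparisons. Wnt10b, a bone-forming ligand, gave 5.55, 5.49 and 5.31 on post-lactation arrays 1 to 3 and 4.78, 5.16 and 5.27 on virgin arrays 1 to 3, a difference of 0.38 (SE 0.21, adjusted p of limma 1). Porcn, which attaches the lipid that Wnts need for secretion, gave 5.86, 5.33 and 6.16 on post-lactation arrays and 6.53, 6.29 and 6.68 on lactation arrays, a difference of -0.71 (SE 0.24, adjusted p 0.532). The groups did not overlap in either case. The 16 receptors had a median difference of 0.06, 0.04 and 0.06, and none had groups that separated, a count that does not set them apart at these shares.

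Rspo2 and Rspo3 had the highest positive differences of the pathway lists in post-lactation, both against lactation and against virgin. They are R-spondins, which raise Wnt signalling by protecting Frizzled receptors from turnover. Rspo1 and Rspo4 were dim in all groups, with differences of 0.12 and 0.06 in post-lactation versus lactation. Rspo3 stood at 4.93, 5.52 and 5.93 on virgin arrays 1 to 3, at 6.25, 6.06 and 5.73 on lactation arrays 1 to 3 and at 6.99, 6.46 and 7.07 on post-lactation arrays 1 to 3. Post-lactation lay above both other groups without overlap. Its difference was 0.83 to lactation (SE 0.29, adjusted p of limma 0.556) and 1.38 to virgin (SE 0.29, adjusted p 0.191), so neither passed. Rspo2 stood at 4.75, 4.82 and 4.72 on virgin arrays, which were all dim, at 5.81, 5.77 and 5.35 on lactation arrays and at 7.67, 5.02 and 6.21 on post-lactation arrays. Its difference to virgin was 1.54 (SE 0.50, adjusted p 1) and within sets 2.92, 1.39 and 0.30, while a dimmer probe set of the gene gave -0.21. Post-lactation minus lactation was 0.66 for Rspo2 (SE 0.50), with 2.32, 0.44 and -0.79 within sets. In lactation Rspo2 already lay above virgin without overlap, by 0.88 (SE 0.50), where the dimmer probe set gave -0.04. Over the 9 genes of the R-spondin system the median difference was 0.12 in post-lactation versus lactation, with the higher mean in post-lactation for 8 of 9.

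Sost and Dkk1, inhibitors that osteocytes secrete, had a low value in virgin 1. Sost gave 11.59, 12.90 and 13.00 on post-lactation arrays 1 to 3 and 12.61, 12.57 and 12.27 on lactation arrays 1 to 3, a difference between post-lactation and lactation of 0.02 (SE 1.11, adjusted p of limma 1). Its virgin group was split by virgin 1, and lactation minus virgin was 4.12 in set 1, -0.82 in set 2 and -0.95 in set 3. Dkk1 likewise gave 2.48 in set 1, -1.04 in set 2 and -0.76 in set 3, with 5.91 in virgin 1 against 9.32 and 9.25 in virgin 2 and 3. Notum, an enzyme that removes the lipid from Wnts, gave 6.34, 6.36 and 6.96 on post-lactation arrays and 6.78, 7.78 and 7.38 on lactation arrays. The difference of -0.76 (SE 0.29) had an adjusted p of 0.725, and of 0.037 with the set as a block. Apcdd1, a membrane inhibitor, was 0.48 higher in mean in lactation than in virgin (SE 0.25) and 0.52 higher in post-lactation than in virgin (SE 0.25), with an adjusted p of 1 for both.

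Inside the cell and downstream the values were mixed. Ctnnbip1, which keeps beta-catenin from its transcription factors, gave 6.64, 6.92 and 6.86 on post-lactation arrays and 6.14, 6.48 and 6.29 on lactation arrays, a difference of 0.50 (SE 0.19, adjusted p of limma 0.736). Tcf7l2, one of those transcription factors, had a difference of -0.66 in the same comparison (SE 0.42, adjusted p 1). Of 9 beta-catenin target genes 5 had the higher mean in post-lactation than in lactation, with a median of 0.12. Nkd2, a feedback inhibitor of Dishevelled, gave 5.77, 5.73 and 6.06 on post-lactation arrays and 5.37, 5.71 and 4.82 on lactation arrays, a difference of 0.56 (SE 0.26, adjusted p 1, with the set block 0.0846). Its relative Nkd1 differed by 0.49 (SE 0.46, adjusted p 1), with 0.56, 0.37 and 0.53 within sets. Its adjusted p was 0.0305 with the set as a block, though its group means were all dim. The other probe sets of Nkd1, also dim on average, did not repeat this difference, with -0.0005, 0.05 and 0.15 between post-lactation and lactation. Nkd1 and Notum are the 2 pathway genes called with the set block, where 3.53% of all genes were called, and each was called in 1 of 9 fits that left out an array. Axin2, the usual readout of beta-catenin activity, was dim in all groups with differences between -0.03 and 0.12. Lef1 was higher in mean in post-lactation than in virgin by 0.79 (SE 0.40, adjusted p 1). Ccnd1 differed by -0.64 between post-lactation and lactation (SE 0.29, adjusted p 0.951). Its other probe sets, also above the dim level, gave -0.42 and -0.03. Of 9 planar polarity genes the groups of Celsr3 separated between post-lactation and lactation, where 7.63% of all genes did, with 5.42, 5.52 and 5.34 in post-lactation and 5.14, 5.31 and 4.96 in lactation (difference 0.29, SE 0.38, adjusted p 1).

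Bmp1, the proteinase that Sfrp2 has been reported to enhance, had its highest mean in the group where Sfrp2 was lowest. A relation of Bmp1 to Sfrp2 was not tested. Bmp1 gave 7.00, 7.54 and 7.65 on virgin arrays 1 to 3, 7.93, 8.63 and 8.47 on lactation arrays 1 to 3, and 7.56, 7.32 and 8.16 on post-lactation arrays 1 to 3. Lactation arrays lay above all virgin arrays and overlapped with post-lactation. Lactation minus virgin was 0.95 (SE 0.29, adjusted p of limma 1), with 1.47, 1.09 and 0.28 within sets. Post-lactation minus lactation was -0.66 (SE 0.29, adjusted p 0.901), with -0.91, -0.48 and -0.61 within sets. Neither passed the test, with or without the set block. The median over the 5 procollagen C-proteinase genes was 0.05, 0.01 and 0.17, and 3 of them were dim in all groups.

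**Figure D5:**
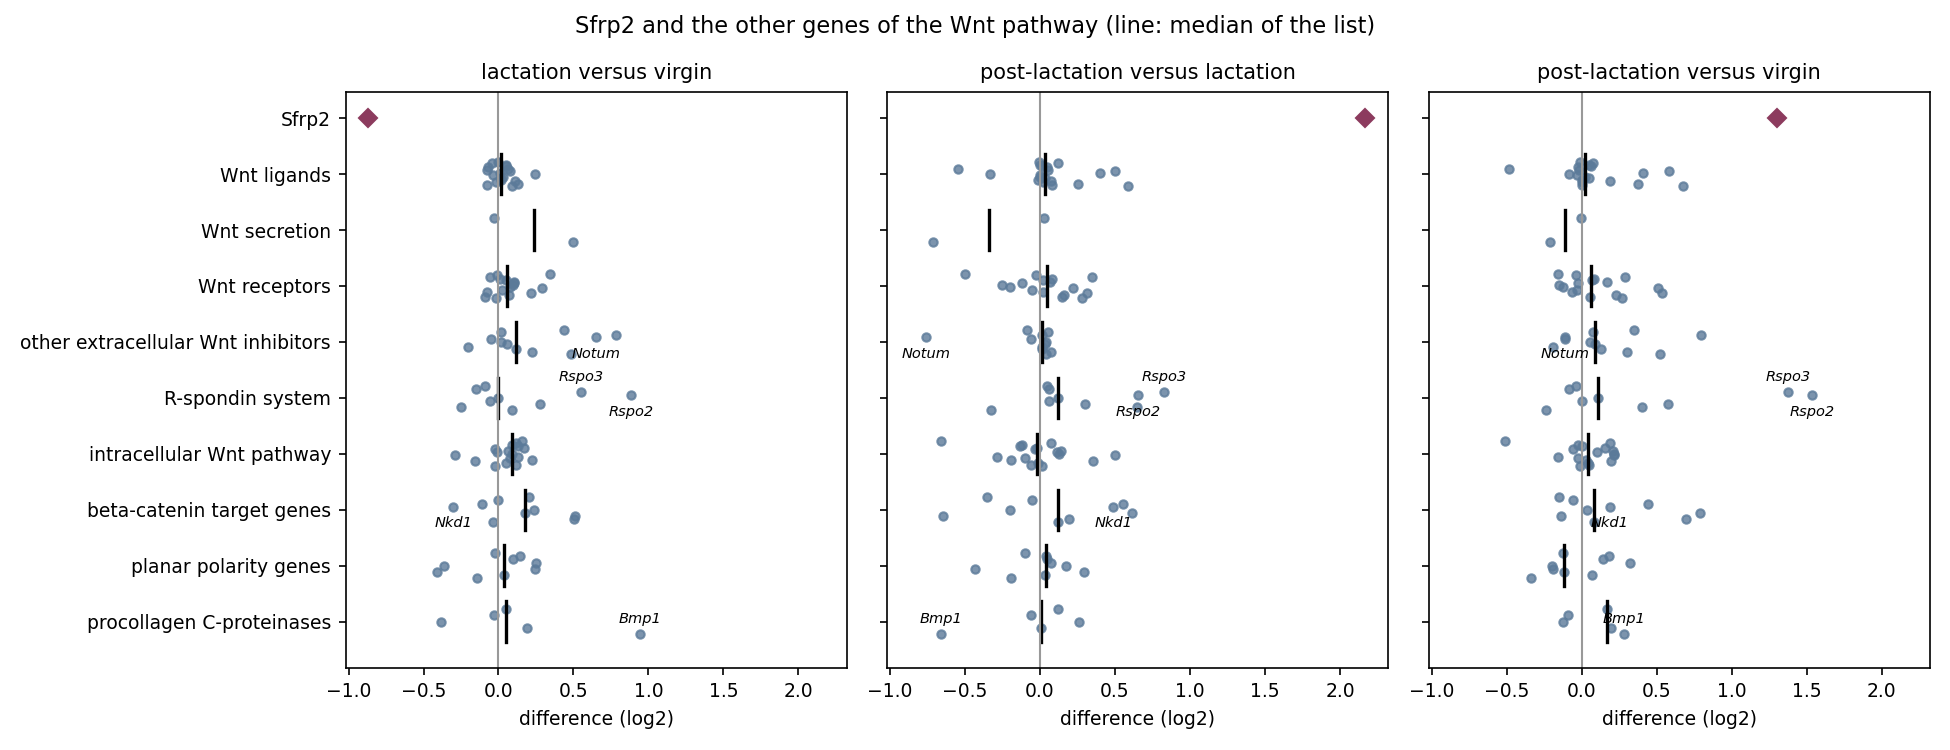
Differences of 97 Wnt pathway genes on the log2 scale by list, with lactation versus virgin, post-lactation versus lactation and post-lactation versus virgin in the 3 panels; points are genes, black lines the median of a list and the diamond Sfrp2. The medians of the lists lie between -0.34 and 0.23 in the 3 panels, and single genes such as Bmp1 at 0.95 in lactation versus virgin and Rspo3 at 1.38 in post-lactation versus virgin lie apart from them without passing the test.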

How the data were processed

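Total RNA of 9 samples was hybridised to Affymetrix M430 mouse arrays. The deposited table holds log2 values per probe set, made by the authors with RMA, as the submitters' processing notes state. GenePattern and Bioconductor appear in the series design text, without versions. RMA corrects background and makes array distributions equal. Arrays handled together can then share distributions and exactly equal values. Such values made up 36.1% to 44.1% of probe sets within sets 2 and 3, 2.50% to 2.72% within set 1, and at most 0.004% between sets. Whether the arrays of set 1 were summarised together, or with other arrays, is not stated in the labels. The values were not normalised again.

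The platform annotation named 1 gene for 34958 probe sets, several for 932 and none for 9211. Differences and SEs came from limma 3.58.1 in R 4.3.3 (lmFit, then eBayes without a trend), with group means, all 9 arrays and no block, and Benjamini-Hochberg adjustment over all 18194 genes, called below 0.05. Probe sets were fitted over all 34958. Tables were handled in Python 3.11.15, and the fit was tested on simulated data. Of 99 pathway genes written 97 were found, and of 97 cell type genes 89. The number of arrays limits the precision, and the files give no depth.

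The members and lists were chosen with earlier results of these data known. Named genes are the 5 members, Sost, Dkk1, Axin2, Lef1 and Bmp1, the called genes of each pathway list or, where none was called, the 2 with the largest difference among genes whose groups do not overlap and are not dim, and the 10 nearest profiles for Sfrp2 and 3 for the others. Nkd1 and Notum, called only with the set block, and Nkd2 where named for likeness, were named after their values were seen. Alternatives were the set or replicate number as a block, 2 rescalings, another eBayes, fewer arrays, a filter on dim genes and other probe sets.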

Additional observations from a re-analysis of the deposited data

How the results depend on the processing

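The 4 members other than Sfrp2 were called 0 times under 25 settings, with a lowest adjusted p of 0.546. For Sfrp2, whose groups do not overlap, raising dim group means to the dim level gave -0.21 for lactation versus virgin and 1.51 for post-lactation versus lactation, and without array set 1 the second was 1.93. The number of genes called in lactation versus virgin, 0 as reported with 328 at an unadjusted p under 0.05, was 1 with array medians subtracted, 4 with the array set block and 1 with quantile normalisation over 9 arrays. In post-lactation versus lactation it was 642 with the set block, 205 with quantile normalisation and 0 without set 1, against 129 as reported, and 76 to 138 with 1 array left out, with 76 without lactation 2 and 80 without post-lactation 2. In post-lactation versus virgin it was 82 with the set block and 0 without set 1, against 32, and 13 to 34 with 1 array left out, with 13 without post-lactation 1, 13 without post-lactation 2, 16 without post-lactation 3 and 21 without virgin 1. The set block called 2 Wnt pathway genes in post-lactation versus lactation, Nkd1 and Notum. Refits of that block with each array left out, chosen after seeing the data, gave adjusted p from 0.0286 to 0.16 for Nkd1 and from 0.0473 to 0.207 for Notum.

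Signs turned in results that passed no test. Without array set 1, Axin2 was -0.0072 in post-lactation versus lactation and -0.012 in post-lactation versus virgin, Dkk1 -0.90 in lactation versus virgin and -0.54 in post-lactation versus virgin, Sost -0.89 and -0.52 in the same comparisons, Lef1 -0.15 in lactation versus virgin and Sfrp4 -0.14 in post-lactation versus virgin. Among single probe sets, Sfrp1 turned to -0.10 and -0.11 against virgin with 1416594_at, to 0.0782 and 0.0912 in post-lactation versus lactation with 1428136_at and 1448395_at, and to -0.0505 in post-lactation versus virgin with 1460187_at, and Sfrp5 to 0.13 in post-lactation versus virgin with 1436075_at. The mean of all probe sets gave -0.11 for Dkk1 and 0.0059 for Sfrp1 in post-lactation versus lactation and 0.0466 for Sfrp5 in post-lactation versus virgin. Quantile normalisation gave -0.0094 for Sost in post-lactation versus lactation. The causes were not tested.

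With 1 array left out, in the order lactation versus virgin, post-lactation versus lactation and post-lactation versus virgin, Axin2 ran from -0.27 to 0.18, -0.0601 to 0.35 and -0.0944 to 0.30, Dkk1 from -0.90 to 0.80, -0.0678 to 0.36 and -0.83 to 0.88, and Sost from -0.99 to 1.71, -0.24 to 0.47 and -0.98 to 1.73. Sfrp4 ran from -0.14 to 0.78, -0.62 to 0.0082 and -0.55 to 0.45, and Sfrp5 from -0.30 to 0.15, -0.20 to 0.26 and -0.27 to 0.17. Frzb ran from -1.73 to 0.0108 in lactation versus virgin and -1.11 to 0.62 in post-lactation versus virgin, Lef1 from -0.26 to 0.55 in lactation versus virgin, and Sfrp1 from -0.21 to 0.0849 in post-lactation versus lactation.

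The replicate numbers of the titles did not pair the samples: the deviations of same-numbered arrays correlated between -0.413 and 0.67, and those of arrays of 1 set between 0.468 and 0.734. With the replicate block, 0, 118 and 33 genes were called in the 3 comparisons. With 3 arrays a group, dim genes and exact ties limit what can be seen for Sfrp5, Axin2 and most Wnt ligands.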

Other observations

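Besides Sfrp2, 10 genes had every lactation array below every virgin array and every virgin array below every post-lactation array. With Sfrp2 they make up 11 of 18194 genes (0.0605%). Some genes take this order by chance alone, so the count is no result about them. The 10 genes were listed after their values were seen and carry no test. By their difference between post-lactation and lactation they are Lrmp (1.04), Pik3cg (0.91), Ptpn18 (0.89), Klhl6 (0.83), Tmem243 (0.80), Gas7 (0.76), Inpp5k (0.63), Map3k3 (0.54), Rgl2 (0.42) and Fam168b (0.31), all on the log2 scale. Pik3cg encodes a phosphoinositide kinase subunit found mainly in leukocytes, and Lrmp and Klhl6 are known from lymphocytes. In log2 units above the array median, the B lymphocyte markers ranged from 1.05 to 2.49 in virgin and 1.79 to 2.48 in lactation. In post-lactation the range was 2.69 to 3.47. Their mean was 1.95 in virgin, 2.03 in lactation and 3.09 in post-lactation, so it was not lowest in lactation. The part of B lymphocytes in the values of the 10 genes was not tested.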
